A study of Mus musculus with 9 samples.

Results

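Ribosome biogenesis genes encode the machinery that makes ribosomes, most of it housed in the nucleolus. A list of 38 such genes, chosen by symbol, was followed in mouse small intestinal organoids, epithelial structures grown in culture in which stem cells and mature cells are found together. Each gene was read through every probe set annotated to its symbol on an Affymetrix Mouse Genome expression array, and the brightest probe set stood for the gene. Of the 38 genes, 37 were measured, of 12941 genes in all, and the signal of each of the 37 was above the filter on low values. The listed gene not analysed here is Npm3, since no probe set carried that symbol alone in the annotation used.

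The 9 arrays formed 3 groups of 3: organoids given no treatment, organoids given a TgfbR1/2 inhibitor at 20 uM, and organoids given the Tgfb1 ligand at 0.04 ng/mL. Cultures were kept for 6 days and treated without a break for 5 days from day 1, per the labels. The sources used here give neither the mouse strain and organoid line nor the inhibitor compound and its vehicle. Whether replicates came from separate cultures is not stated, so each p-value rests on the variation among these arrays, which could be technical. In bulk RNA, fewer cells of a type and less RNA per cell cannot be told apart.

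Ribosome production starts with transcription of the ribosomal DNA by RNA polymerase I. Small nucleolar ribonucleoproteins (snoRNPs) then modify and help to fold the precursor RNA, and a large particle, the small subunit processome, cuts out the small subunit RNA, while other factors assemble the large subunit. Production is high in growing and dividing cells such as those of the intestinal crypt, and the Myc transcription factors are known to promote it.

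The median signal of an array lay between 46.1 and 57.9, with equal trimmed means of 350.0. The defining markers of intestinal epithelium (Epcam, Cdh1, Vil1, Krt8, Krt18, Krt19, Cdx1 and Cdx2) were all above the filter, with summed signals of 60617 to 64480 untreated, 61561 to 70995 with inhibitor and 62722 to 71608 with ligand. Of these 8 markers, 1 was called higher and 2 lower with inhibitor (changes of -0.37 to 0.51). With ligand against untreated, 1 was called higher and 0 lower. Col1a1, Col3a1 and Dcn of fibroblasts, Ptprc, Cd3e and Itgam of leukocytes, and Pecam1 and Cdh5 of endothelium were all under the filter. Above it were Vim (-1.11 ± 0.14 with inhibitor, adjusted p = 3.25e-05), Col1a2 and Pdgfra of the 6 fibroblast markers, Cd68 of the leukocyte markers (0.66 ± 0.15, adjusted p = 0.00263) and Kdr of the endothelial markers; Col1a2, Pdgfra and Kdr were not called with inhibitor, and none of these 5 was called with ligand against untreated. Summed signals were 276 to 317 untreated, 163 to 239 with inhibitor and 319 to 389 with ligand for fibroblast markers, 110 to 125, 133 to 181 and 95 to 109 for leukocyte markers, and 51 to 65, 52 to 70 and 43 to 58 for endothelial markers, and their part in the results below was not tested. Levels are MAS5 signals, and the levels of different genes are not compared, because each probe set has its own brightness. Changes are differences in log2(signal + 16), given as estimate ± SE with 3 arrays in each group. A gene is said to have risen or fallen where its limma adjusted p, corrected over all 12941 genes by the Benjamini-Hochberg method, was under 0.05.

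With the inhibitor, ribosome biogenesis genes were lower in every role group. Of the 37 measured, 33 fell and none rose, where 23.8% of all genes fell and 21.1% rose. With limma, 0 were higher and 35 lower at an unadjusted p under 0.05. The median change was -0.59, with single genes at -0.99 to -0.16, beside -0.01 over all genes. A fall of at least 1.5-fold was found in 19 of the 37 and in 9.37% of all genes. All 3 inhibitor arrays lay below all 3 untreated arrays in 36 of the 37 genes and in 29.3% of all genes. The genes that did not pass the test were Rrp12 (-0.28 ± 0.11, adjusted p = 0.0529), Wdr75 (-0.25 ± 0.10, adjusted p = 0.0561), Imp4 (-0.16 ± 0.09, adjusted p = 0.159) and Nol6 (-0.23 ± 0.15, adjusted p = 0.23), which all belong to the small subunit group.

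With the ligand, the changes were smaller, from -0.06 to 0.51. Gar1, Polr1b, Wdr75, Tsr1 and Nol6 rose, which is 5 of 37 where 14.7% of all genes rose. None fell, where 9.3% of all genes fell, and limma gave 0 lower and 8 higher at an unadjusted p under 0.05. The median change was 0.11, with 31 genes above and 6 below 0, beside 0.05 over all genes; with each array centred on its median, the members' median was 0, with 18 genes above and 19 below. All 3 ligand arrays lay above all 3 untreated arrays in 10 of 37 genes and in 24.2% of all genes. The ligand arrays had the 3 highest array medians (51.6 to 57.9, against 46.1 to 51.2 on the untreated and 46.5 to 49.5 on the inhibitor arrays). With each array centred on its median, 0 members were called higher with ligand. With quantile normalization, which gives all arrays the same distribution, 6 were called and the members' median was 0.11. The part of the array medians in the ligand calls was not tested beyond these scalings.

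**Figure D1:**
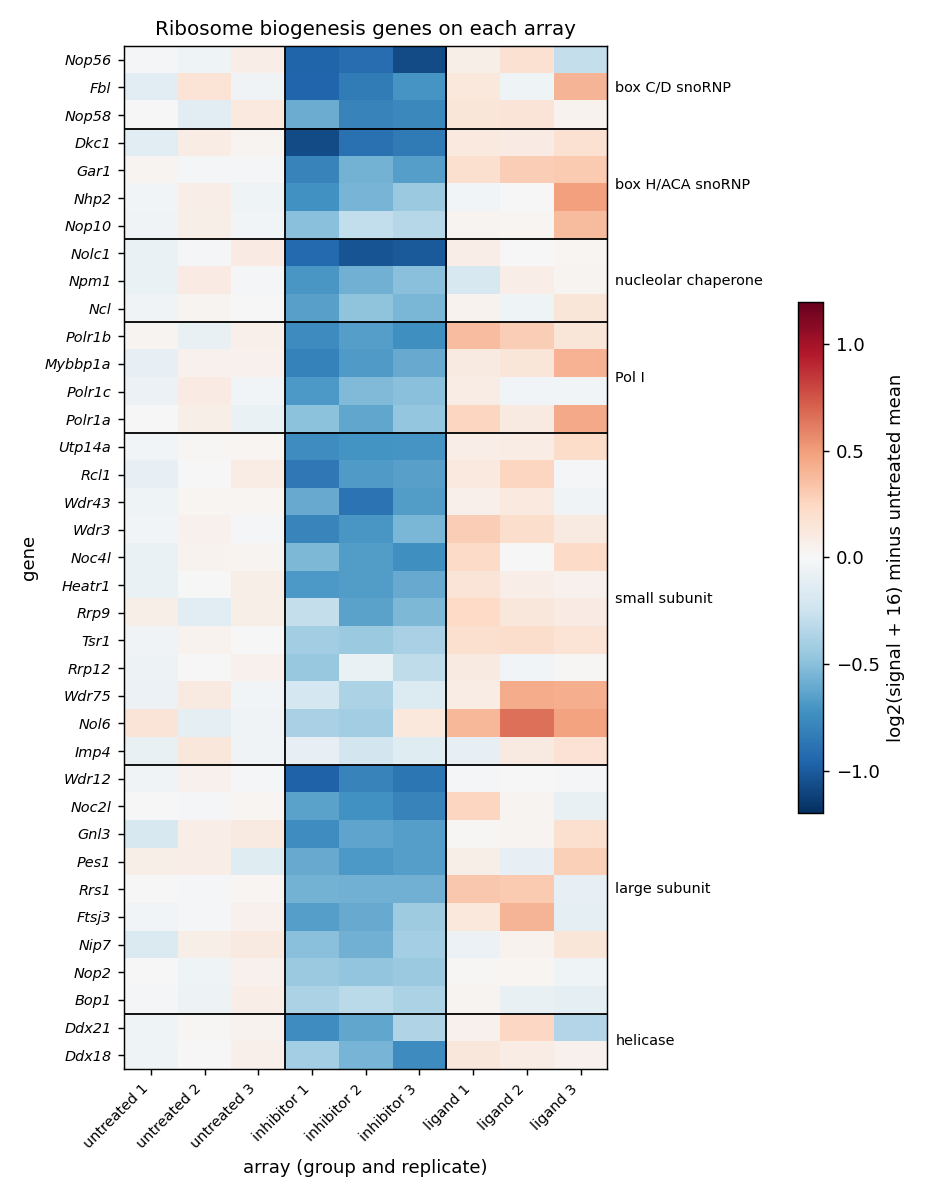
Each row is a gene and each column an array, and colour gives log2(signal + 16) minus the mean of the 3 untreated arrays, with genes grouped by role. The inhibitor columns are blue in nearly every row, with array medians over the 37 genes of -0.65, -0.62 and -0.58, while the ligand columns have medians of 0.11, 0.09 and 0.11. The median change over the ligand group was 0 with arrays centred on their medians and 0.11 with quantile normalization.

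Set against each other, the treatments separated every measured gene of the list, read through its brightest probe set. All 37 were higher with ligand than with inhibitor, where 32.4% of all genes were higher, and 0 were lower by limma, also at an unadjusted p under 0.05, where 22.8% of all genes were lower. The difference was at least 1.5-fold in 27 genes and in 16.3% of all genes. Its median was 0.75, with a range of 0.22 to 1.07, beside 0.07 over all genes, and it was 0.59 with each array centred on its median. With that centring 34 of the 37 genes passed the test. Imp4 had the largest adjusted p (0.22 ± 0.09, adjusted p = 0.0447) and kept its call in 9 of 20 alternative ways of processing. Rrp12 kept its call in 15 of 20. Centring moved the median of all genes from 0.049 to -0.064 for ligand against untreated and from 0.066 to -0.091 for ligand against inhibitor. It also moved the share of calls that were higher from 61.3% to 36.5% and from 58.6% to 41.7%. With quantile normalization the medians of all genes were 0.013 and -0.01 in these comparisons, and the shares were 54.1% and 51.8%.

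The comparisons with untreated share the same 3 untreated arrays, so their values are set side by side and their likeness is not counted. A further contrast added the changes under inhibitor and ligand, and it is 0 where they are equal and opposite. It lay below 0 in 25 of the 37 genes (10.9% of all genes) and above 0 in none (12.7% of all genes), and limma gave 28 below and 0 above at an unadjusted p under 0.05. In those 25 genes the fall under inhibitor was larger than any opposite change under ligand. The count was 11 without untreated replicate 2, and also 11 without untreated replicate 3. By calls, 30 of 37 genes fell with inhibitor and were not called with ligand, as did 2227 of all 12941 genes. Gar1, Polr1b and Tsr1 fell with inhibitor and rose with ligand, as did 651 of all genes.

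**Figure D2:**
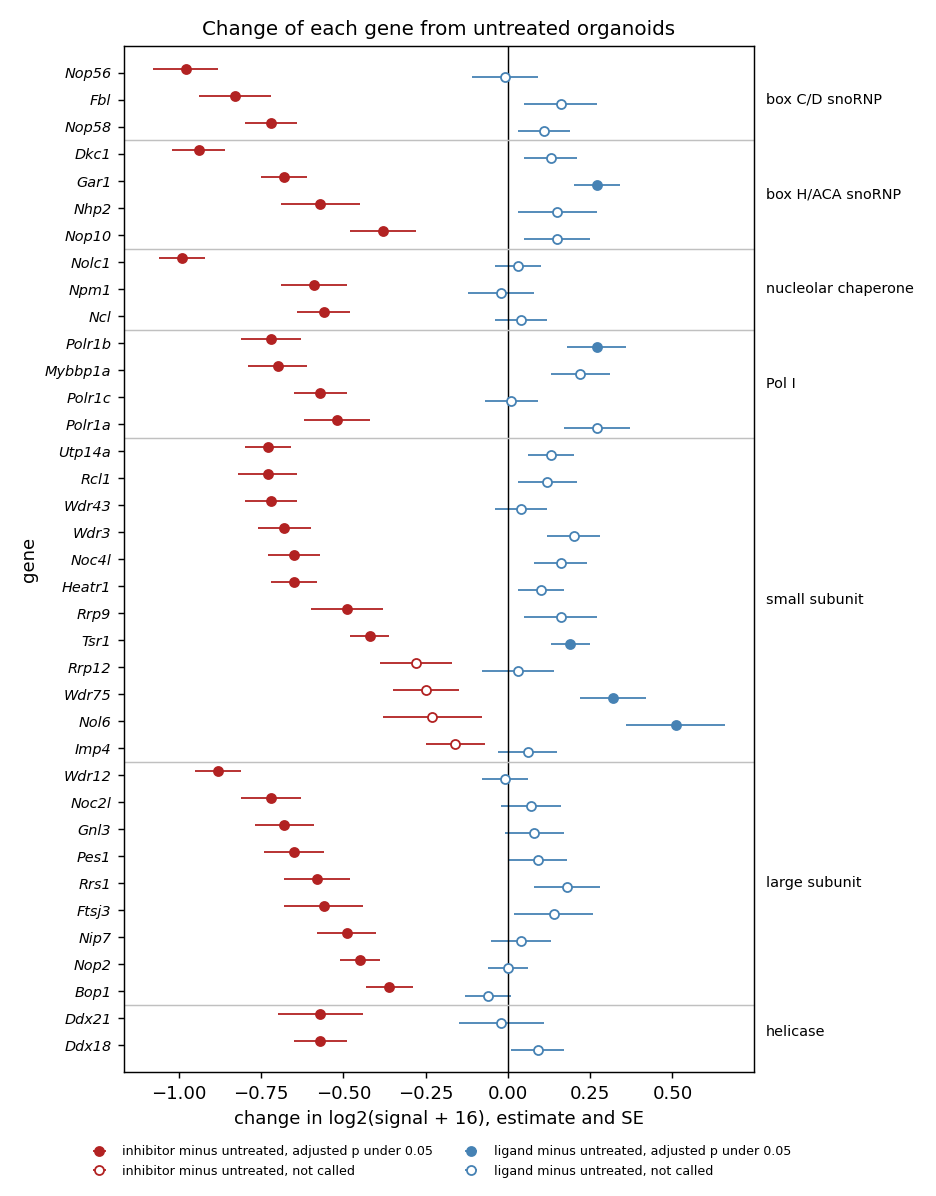
The horizontal axis is the change in log2(signal + 16) from untreated for the inhibitor (red) and the ligand (blue), with SE bars, and filled points have an adjusted p under 0.05. Inhibitor points run from -0.99 (Nolc1) to -0.16 (Imp4), and ligand points from -0.06 (Bop1) to 0.51 (Nol6). With each array centred on its median no ligand point was called, and with quantile normalization 6 were called higher.

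Because the members moved together, the letters of their promoters were searched for binding motifs. RefSeq promoter windows of 300 bases, 250 before to 50 after the annotated start in build GRCm38.p6, were matched for 32 of the 38 genes (35 windows), Npm3 included; Rrs1, Nol6, Rrp12, Npm1, Fbl and Bop1 had no entry. The 10 motifs were searched on both strands. The E-box CACGTG, which Myc with Max is known to bind, was in 17.1% of member windows and 7.15% of all 32851 windows. The variant E-box CACGCG was in 31.4% and 9.27%. An ETS factor core, CCGGAA, was in 42.9% and 14.9%, and a longer ETS form that can overlap it, CACTTCCG, in 31.4% and 3.44%. The GC box GGGCGG was in 74.3% and 35.7%. The CCAAT box, letters CCAAT, was in 37.1% and 37.4%, the TATA box TATAAA in 5.71% and 13.6%, and the SMAD half-site CAGAC in 40% and 49.6%. The NRF1 palindrome and a Kaiso-type element were in 0 of the 35 member windows and in 0.971% and 0.466% of all windows. Member windows had a median GC content of 59.7%, against 52.7% over all windows, and the shares were not adjusted for it.

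Windows are shown for genes at either end of the inhibitor response and for members that hold an E-box. Nolc1 and Dkc1 had changes of -0.99 and -0.94, Wdr43 -0.72, Tsr1 -0.42 and Imp4 -0.16. Capitals mark the E-box, the ETS core and the longer ETS form, and the Dkc1 window holds none of these. The windows lie on the plus strand at chrX:75095604-75095903 (Dkc1), chr19:46075597-46075896 (Nolc1), chr17:71615965-71616264 (Wdr43), chr11:74897830-74898129 (Tsr1) and chr1:34439579-34439878 (Imp4).
Dkc1: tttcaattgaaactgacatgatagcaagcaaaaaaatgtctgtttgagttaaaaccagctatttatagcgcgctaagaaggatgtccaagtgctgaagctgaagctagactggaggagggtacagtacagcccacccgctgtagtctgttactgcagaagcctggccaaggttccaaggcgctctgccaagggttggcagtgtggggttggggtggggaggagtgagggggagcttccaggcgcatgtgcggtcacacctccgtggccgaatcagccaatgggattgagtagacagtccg
Nolc1: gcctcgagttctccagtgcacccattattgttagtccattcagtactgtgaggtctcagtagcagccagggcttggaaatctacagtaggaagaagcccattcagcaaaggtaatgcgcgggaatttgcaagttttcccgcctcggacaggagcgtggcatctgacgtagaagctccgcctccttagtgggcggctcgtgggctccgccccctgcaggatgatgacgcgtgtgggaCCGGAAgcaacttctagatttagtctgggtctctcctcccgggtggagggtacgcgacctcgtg
Wdr43: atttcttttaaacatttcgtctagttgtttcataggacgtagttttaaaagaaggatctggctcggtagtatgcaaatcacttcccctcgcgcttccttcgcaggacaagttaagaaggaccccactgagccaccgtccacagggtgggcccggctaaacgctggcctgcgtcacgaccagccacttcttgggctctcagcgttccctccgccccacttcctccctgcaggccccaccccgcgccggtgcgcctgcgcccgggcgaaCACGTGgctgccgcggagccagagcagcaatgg
Tsr1: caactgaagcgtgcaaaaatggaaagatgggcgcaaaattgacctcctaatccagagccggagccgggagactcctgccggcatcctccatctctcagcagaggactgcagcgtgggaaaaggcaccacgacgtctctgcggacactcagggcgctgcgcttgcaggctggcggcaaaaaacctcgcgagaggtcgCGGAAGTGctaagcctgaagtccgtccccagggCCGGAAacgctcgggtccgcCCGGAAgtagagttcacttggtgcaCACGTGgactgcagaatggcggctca
Imp4: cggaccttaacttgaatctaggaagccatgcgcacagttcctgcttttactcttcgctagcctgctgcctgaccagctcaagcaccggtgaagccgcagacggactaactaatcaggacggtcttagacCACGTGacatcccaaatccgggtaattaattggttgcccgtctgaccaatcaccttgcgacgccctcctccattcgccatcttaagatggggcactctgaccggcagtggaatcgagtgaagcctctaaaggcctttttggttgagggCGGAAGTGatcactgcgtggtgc

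Counted from the annotated start as +1, the first base of the E-box lies at -121 in Imp4, -60 in Nop2, 3 in Pes1, 18 in Wdr43, 25 in Tsr1 and 41 in Mybbp1a. Among the 31 measured members with a window, the 6 with an E-box had a median change under inhibitor of -0.55 (range -0.72 to -0.16), and the 25 without had -0.65 (-0.99 to -0.25). The 13 with an ETS core had a median of -0.57 and the 18 without -0.66. These medians are a description of one set of genes and carry no test. A match says only that the letters are in the window, and its absence only that they are not.

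The box C/D snoRNP genes, whose products belong to the particle that methylates ribosomal RNA, all fell with the inhibitor, beside 23.8% of all genes. Nop56, a scaffold protein of the particle, had signals of 2826, 2781 and 3039 untreated, 1469, 1525 and 1365 with inhibitor and 3014, 3275 and 2354 with ligand. The inhibitor values lay far below the others, while the ligand values spanned the untreated ones. The fall was 1.97-fold (-0.98 ± 0.10, adjusted p = 6.25e-06), and the ligand change was -0.01 ± 0.10 (adjusted p = 0.944). Nop58, the partner scaffold, had signals of 2149, 1973 and 2338 untreated, 1418, 1228 and 1253 with inhibitor and 2373, 2385 and 2206 with ligand. It fell 1.65-fold (-0.72 ± 0.08, adjusted p = 1.03e-05), with the inhibitor arrays again apart from the rest. Fbl, the methyltransferase fibrillarin, fell from 4338 ± 453 to 2425 ± 203 (SD, n = 3), a change of -0.83 ± 0.11 with adjusted p = 5.39e-05.

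The box H/ACA proteins form the particle that converts uridine to pseudouridine and also belong to telomerase. Dkc1, the pseudouridine synthase dyskerin, had signals of 3713, 4307 and 4137 untreated, 1917, 2168 and 2241 with inhibitor and 4379, 4336 and 4586 with ligand. All 3 groups were separate, the ligand arrays by a narrow margin. It fell 1.92-fold with inhibitor (-0.94 ± 0.08, adjusted p = 1.06e-06), the ligand change did not pass the test (0.13 ± 0.08, adjusted p = 0.266), and ligand exceeded inhibitor 2.1-fold, the largest such difference among the 37 genes (1.07 ± 0.08, adjusted p = 1.35e-07). Gar1, which joins the particle late, had signals of 1627, 1573 and 1569 untreated, 903, 1067 and 1001 with inhibitor and 1823, 1950 and 1978 with ligand. It moved both ways without overlap, falling by 0.68 ± 0.07 with inhibitor (adjusted p = 7.15e-06) and rising by 0.27 ± 0.07 with ligand (adjusted p = 0.0166). Nhp2 (-0.57 ± 0.12) and Nop10 (-0.38 ± 0.10), the small RNA-binding and bridging subunits, fell less; with each array centred on its median, Nop10 no longer passed the test (adjusted p = 0.0522). Their ligand replicate 3 stood above the other ligand arrays, at 6469 against 4469 and 4589 for Nhp2 and at 7825 against 6123 and 6117 for Nop10.

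Among the nucleolar chaperones, Nolc1 had the largest fall of the list. Nolc1 accompanies snoRNPs between the nucleolus and Cajal bodies, and its signals were 987, 1028 and 1113 untreated, 536, 499 and 511 with inhibitor and 1104, 1038 and 1059 with ligand. The inhibitor arrays sat near 516 while the ligand arrays lay within the untreated range. The fall was 1.99-fold (-0.99 ± 0.07, adjusted p = 2.12e-07), and 2.53% of all genes had a lower change. Ncl, the abundant nucleolar protein nucleolin, had signals of 7862, 8319 and 8146 untreated, 5148, 5786 and 5543 with inhibitor and 8341, 7826 and 8941 with ligand. It fell 1.48-fold (-0.56 ± 0.08, adjusted p = 6.9e-05) and changed by 0.04 ± 0.08 with ligand (adjusted p = 0.744). Npm1, a histone and ribosome chaperone, fell from 12776 ± 810 to 8485 ± 582 (-0.59 ± 0.10, adjusted p = 0.00023). Its probe sets may also read copies of the gene elsewhere in the genome.

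**Figure D3:**
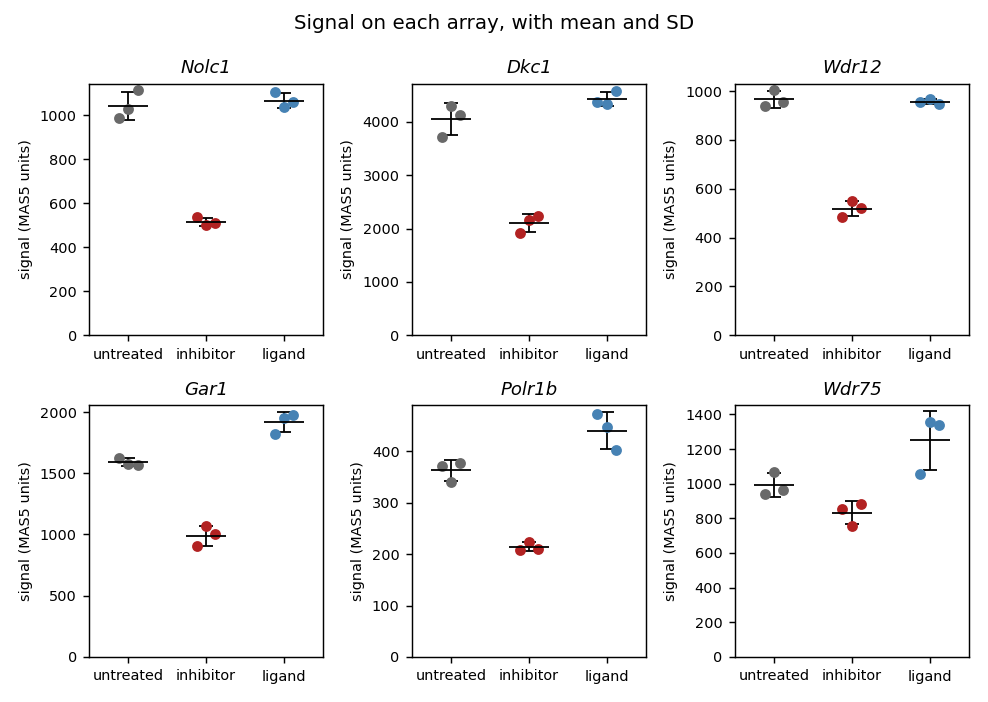
MAS5 signal (vertical axis from 0) of 6 genes on each of the 9 arrays by group, with the mean and SD of each group as black bars. Nolc1 and Wdr12 fell with the inhibitor and had ligand arrays close to the untreated ones, and Gar1 and Polr1b moved in both directions. In Wdr75 the rise with ligand passed the test. The inhibitor change of Wdr75 did not, although all 3 inhibitor arrays lay below the untreated ones. With each array centred on its median none of these rises with ligand passed the test.

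The RNA polymerase I genes of the list all fell with the inhibitor, beside 23.8% of all genes. Polr1b, the second-largest subunit, had signals of 371, 340 and 378 untreated, 209, 224 and 211 with inhibitor and 472, 448 and 402 with ligand. The groups did not overlap, with ligand highest and inhibitor lowest. The fall was 1.64-fold (-0.72 ± 0.09, adjusted p = 2.35e-05) and the rise with ligand 0.27 ± 0.09 (adjusted p = 0.0416). Mybbp1a, a nucleolar protein that binds the polymerase machinery, had signals of 2479, 2742 and 2741 untreated, 1503, 1648 and 1734 with inhibitor and 2857, 2936 and 3543 with ligand. It fell 1.62-fold (-0.70 ± 0.09, adjusted p = 3.27e-05), and although the ligand arrays lay above the untreated ones, the change of 0.22 ± 0.09 had an adjusted p of 0.0887. The largest subunit, Polr1a, fell from 327 ± 17.9 to 223 ± 14.0 and had 400 ± 49.3 with ligand (0.27 ± 0.10, adjusted p = 0.0652). Polr1c, shared with RNA polymerase III, fell by 0.57 ± 0.08 and changed by 0.01 ± 0.08 with ligand (adjusted p = 0.964). The other Polr1c probe set fell by 0.23 with inhibitor (adjusted p = 0.0291 over all probe sets). That probe set did not differ between ligand and inhibitor by the test (0.12, adjusted p = 0.221).

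Of the 12 small subunit genes, 8 fell with the inhibitor, beside 23.8% of all genes, and 3 rose with the ligand, beside 14.7% of all genes; none of these 3 rises passed with each array centred on its median. Utp14a, a processome component, had signals of 954, 990 and 994 untreated, 578, 588 and 592 with inhibitor and 1037, 1040 and 1142 with ligand. The inhibitor arrays lay close together and far below the rest. The fall was 1.65-fold (-0.73 ± 0.07, adjusted p = 1.82e-06). Wdr3, a beta-propeller protein of the processome, had signals of 1230, 1301 and 1238 untreated, 719, 767 and 853 with inhibitor and 1546, 1454 and 1356 with ligand. It fell 1.6-fold (-0.68 ± 0.08, adjusted p = 1.26e-05), and the ligand change of 0.20 ± 0.08 did not pass (adjusted p = 0.0722). Rcl1 (-0.73 ± 0.09), Wdr43 (-0.72 ± 0.08), Noc4l (-0.65 ± 0.08), Heatr1 (-0.65 ± 0.07), Rrp9 (-0.49 ± 0.11) and Tsr1 (-0.42 ± 0.06) also fell.

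Among the other members of this group, Wdr75, Nol6, Rrp12 and Imp4 were not called with inhibitor, and Wdr75, Nol6 and Tsr1 rose with ligand on the deposited scale. Wdr75, a processome protein of the subcomplex that also holds Wdr43 and Heatr1, had signals of 942, 1070 and 965 untreated, 854, 758 and 885 with inhibitor and 1056, 1354 and 1342 with ligand. The ligand arrays overlapped the untreated ones through the lowest of them, and the rise was 0.32 ± 0.10 (adjusted p = 0.0311). All 3 inhibitor arrays of Wdr75 lay below the untreated ones. The other Wdr75 probe set fell by 0.42 with inhibitor (adjusted p = 0.0351 over all probe sets). Where probe sets were averaged, the inhibitor change of Wdr75 was -0.33 and passed the test (adjusted p = 0.00731). Nol6, a processome protein, had signals of 193, 157 and 166 untreated, 127, 124 and 188 with inhibitor and 231, 281 and 245 with ligand. Inhibitor replicate 3 fell inside the untreated range, while all ligand arrays were higher than both other groups, a rise of 0.51 ± 0.15 (adjusted p = 0.0215). Without inhibitor replicate 3 the inhibitor change of Nol6 was -0.40 and passed the test (adjusted p = 0.026). Its other probe set had a change of 0.01 with ligand (adjusted p = 0.984 over all probe sets), so the rise rests on 1 of 2 probe sets. Tsr1, a late small subunit assembly factor, rose by 0.19 ± 0.06 with ligand (adjusted p = 0.0358), from 1605 ± 45.8 to 1831 ± 27.5. Rrp12, an export factor, was at 212, 221 and 230 untreated and 156, 209 and 176 with inhibitor; without inhibitor replicate 2 its change was -0.38 and passed (adjusted p = 0.0158). Imp4 had the smallest change of the 37 with inhibitor, from 1080 ± 90.5 to 967 ± 42.2. With ligand, Rrp12 changed by 0.03 ± 0.11 (adjusted p = 0.871) and Imp4 by 0.06 ± 0.09 (adjusted p = 0.66).

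The ligand calls were close to the threshold. With each array centred on its median, none of the 5 passed, at changes of 0.15 for Gar1, 0.15 for Polr1b, 0.21 for Wdr75, 0.08 for Tsr1 and 0.40 for Nol6. With quantile normalization Polr1b (adjusted p = 0.11) and Nol6 (0.0671) lost their calls, while Dkc1, Nop10 and Mybbp1a were called. Gar1 lost its call without untreated replicate 2 (adjusted p = 0.0545). Polr1b lost it without any array other than ligand replicate 3 (adjusted p of 0.0501 to 0.15). Tsr1 did so without any untreated array, inhibitor replicate 2 or 3, or ligand replicate 1 or 2, Wdr75 without untreated replicate 1 or 3 or ligand replicate 2 or 3, and Nol6 without untreated replicate 2 or 3 or ligand replicate 2. Over the single arrays left out, 1 to 6 members rose with ligand.

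All 9 large subunit genes fell with the inhibitor, beside 23.8% of all genes. None was called with the ligand, where 14.7% of all genes rose and 9.3% fell. Wdr12, which with Pes1 and Bop1 forms a complex needed for large subunit RNA processing, had signals of 939, 1005 and 955 untreated, 485, 548 and 523 with inhibitor and 955, 969 and 948 with ligand. The ligand arrays lay inside the untreated range and the inhibitor arrays far below it. The fall was 1.84-fold (-0.88 ± 0.07, adjusted p = 5.28e-07). Its partners fell too, Pes1 by 0.65 ± 0.09 and Bop1 by 0.36 ± 0.07. Gnl3, the GTP-binding protein nucleostemin, had signals of 2169, 2627 and 2681 untreated, 1478, 1590 and 1568 with inhibitor and 2501, 2547 and 2840 with ligand. It fell 1.6-fold (-0.68 ± 0.09, adjusted p = 3.16e-05), with untreated replicate 1 the lowest of the untreated arrays and still above every inhibitor array.

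The other large subunit genes fell by amounts between those of Wdr12 and Bop1. Noc2l fell by 0.72 ± 0.09, the methyltransferase-like Ftsj3 by 0.56 ± 0.12, Nip7 by 0.49 ± 0.09 and the RNA methyltransferase Nop2 by 0.45 ± 0.06. Rrs1, needed to bring the small ribosomal RNA of the large subunit into the particle, had inhibitor signals of 1335, 1323 and 1329 against 1977, 1971 and 2018 untreated, a fall of 0.58 ± 0.10 (adjusted p = 0.000289). The Rrs1 probe set is of a type whose probes can match other transcripts, and its other probe set fell by 0.72 (adjusted p = 1.22e-05 over all probe sets).

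The nucleolar RNA helicases of the DEAD-box family, which unwind RNA during ribosome assembly, fell alike. Ddx18 had signals of 1333, 1374 and 1442 untreated, 1039, 934 and 814 with inhibitor and 1518, 1471 and 1434 with ligand. The inhibitor arrays were spread more widely than the others but did not reach them, and the fall was 1.49-fold (-0.57 ± 0.08, adjusted p = 9.42e-05). Ddx21 fell from 1571 ± 47.4 to 1056 ± 149 (-0.57 ± 0.13, adjusted p = 0.00271), and its ligand arrays ran from 1228 to 1866.

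The probe sets not used above gave the same direction in nearly all cases. The 37 genes had 75 probe sets above the filter, and 27 genes had more than 1. These were tested in a limma fit of their own, over 28653 probe sets and adjusted over all of them. Of the 38 probe sets not chosen, 29 fell with the inhibitor (20.1% of all probe sets) and 0 rose (15% of all), with a median change of -0.57, and 37 lay below 0. The exception was a probe set of Imp4 (0.05, adjusted p = 0.675). Of the same 38, 3 rose with ligand (1 each of Mybbp1a, Noc2l and Wdr75), where 9.73% of all probe sets rose, and 29 were higher with ligand than with inhibitor, where 29.4% of all were. Of the 5 chosen probe sets that rose with ligand over genes, those of Gar1 (adjusted p = 0.0298) and Nol6 (0.0336) also passed in this fit, and those of Wdr75 (0.0505), Tsr1 (0.0607) and Polr1b (0.0615) did not.

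Genes of the same pathway outside the list were lower with the inhibitor as well, by less at the median. Of 139 further biogenesis genes 133 were measured, and 84 fell and 2 rose, with a median of -0.35. Of all genes, 23.8% fell and 21.1% rose. The members and lists were chosen with earlier results of these data known, so their medians are set side by side without a test. With the ligand, 7 rose and 2 fell on the deposited scale, where 14.7% of all genes rose and 9.3% fell. Among other small subunit factors 36 of 47 fell (median -0.35), including Utp20 (-0.71 ± 0.07), Imp3 (-0.69 ± 0.07), the partner of Imp4, Utp25 (-0.65 ± 0.08) and the RNA acetyltransferase Nat10 (-0.43 ± 0.10). Among other large subunit factors 29 of 48 fell (median -0.36), including Rrp1b (-1.11 ± 0.09), Ppan (-0.91 ± 0.08) and Wdr74 (-0.76 ± 0.07). Of the RNA exosome and RNase P/MRP genes, which trim and cut precursor RNAs, 12 of 21 fell and 1 rose, and those that fell included Exosc8 (-0.74 ± 0.07), Dis3 (-0.71 ± 0.09) and Exosc5 (-0.57 ± 0.08).

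The remaining RNA polymerase I genes were divided. Of 17 measured, 7 fell and 1 rose, with a median of -0.21, where 23.8% of all genes fell and 21.1% rose. Nop53, which is also known as a large subunit factor, fell by 0.67 ± 0.09, and among polymerase subunits Polr1e fell by 0.62 ± 0.10 and Polr2h by 0.49 ± 0.07. The promoter selectivity factor subunits Taf1a (-0.60 ± 0.14) and Taf1d (-0.80 ± 0.13) fell, while Taf1b (0.27 ± 0.15, adjusted p = 0.168) and Taf1c (0.06 ± 0.10, adjusted p = 0.672) were not called. The polymerase I initiation factors were not called either: Ubtf had signals of 807, 732 and 711 untreated and 761, 579 and 605 with inhibitor (-0.21 ± 0.10, adjusted p = 0.0916), and Rrn3 had 398, 491 and 445 untreated and 382, 443 and 452 with inhibitor (-0.06 ± 0.10, adjusted p = 0.661). Both overlapped between the groups. Baz2a, part of a complex that silences ribosomal DNA, rose by 0.35 ± 0.14 (adjusted p = 0.0499). Of 20 RNA polymerase III genes, 8 fell and 3 rose (median -0.23), with Polr3g up by 0.31 ± 0.08.

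Ribosomal protein genes, whose products the pathway assembles, were lower by less. Of 80 listed, 44 were measured, since many probe sets of these genes carry several symbols and were left out. With the inhibitor 13 of 44 fell and 0 rose by limma (17 lower and 0 higher at an unadjusted p under 0.05). Of all genes, 23.8% fell and 21.1% rose. The median was -0.22, and 43 of the 44 lay below 0, as did 6607 of all 12941 genes. Ribosomal protein genes that fell included Rpl14 (-1.10 ± 0.07), Rps6 (-0.98 ± 0.07) and Rpl12 (-0.78 ± 0.07). Rps25 (-0.67 ± 0.09), Rpl13a (-0.43 ± 0.09) and Rps19 (-0.43 ± 0.11) fell less. Over the alternative ways of processing, the Rps6 change ran from -1.03 to -0.35. None was called with the ligand, and 0 passed an unadjusted p under 0.05 in either direction. Of 34 translation factors 17 fell (median -0.22), among them Eif4b (-0.82 ± 0.10). In nucleotide and polyamine synthesis, which supply ribosomal RNA building blocks and growth, 19 of 23 fell (median -0.66), led by Shmt1 (-1.33 ± 0.07), Gart (-1.27 ± 0.08) and Shmt2 (-1.05 ± 0.06). Probe sets of ribosomal protein genes can also read their many processed copies.

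**Figure D4:**
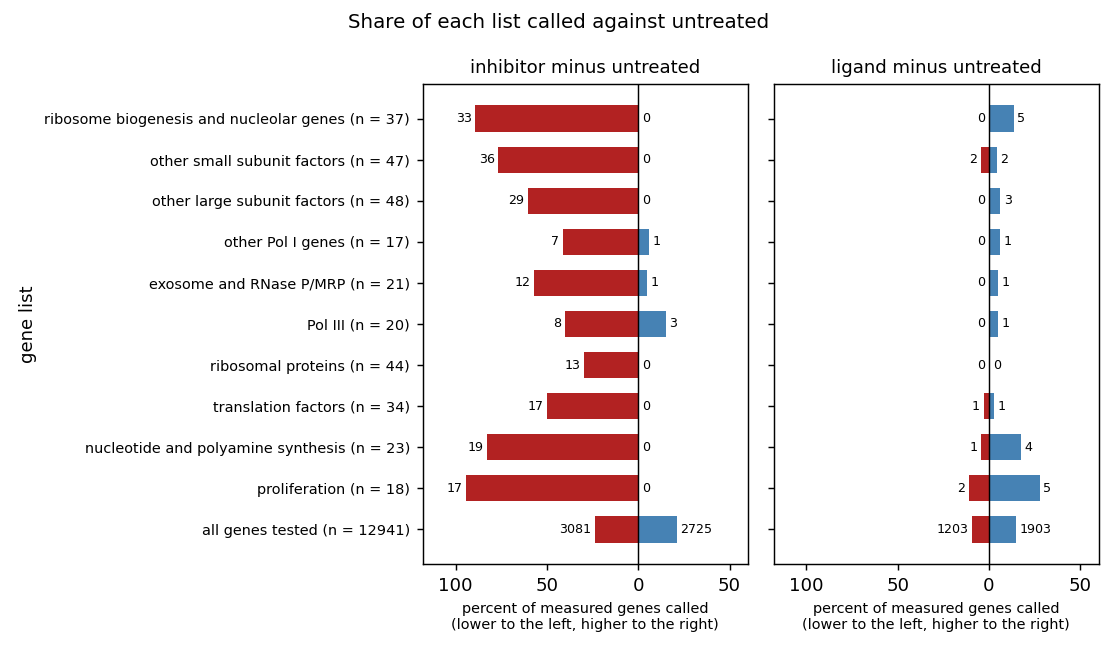
Bars give the percent of measured genes called lower (red, left) and higher (blue, right) against untreated in each gene list, with the number called beside each bar, for inhibitor (left panel) and ligand (right panel). With the inhibitor the ribosome biogenesis and nucleolar genes (33 of 37 lower) lie near proliferation genes (17 of 18) and above ribosomal proteins (13 of 44) and all genes (3081 of 12941). Shares with ligand depend on the scale. No member was called higher with each array centred on its median, and 6 were with quantile normalization.

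The 3 Myc genes, which encode transcription factors known to act on this pathway, fell with inhibitor and rose with ligand on the deposited scale. Most of the listed ribosome biogenesis genes (30 of 37) fell with inhibitor and were not called with ligand. Myc had signals of 1047, 1257 and 1250 untreated, 707, 708 and 689 with inhibitor and 1479, 1490 and 1491 with ligand. The groups did not overlap, and Myc fell by 0.74 ± 0.08 with inhibitor (adjusted p = 4.9e-06) and rose by 0.33 ± 0.08 with ligand (adjusted p = 0.00657). With each array centred on its median the rise was 0.22 and did not pass (adjusted p = 0.137). The rise of Myc passed in 19 of 20 alternative ways of processing. Mycl had signals of 282, 369 and 382 untreated, 154, 118 and 164 with inhibitor and 553, 504 and 736 with ligand. It fell by 1.16 ± 0.15 and rose by 0.76 ± 0.15 (adjusted p = 0.00313), and the fall was 0.67 where its probe sets were averaged. The rise of Mycl passed in all 20 alternatives, median centring included (0.61 to 0.87, adjusted p up to 0.0179). Mycn had signals of 301, 306 and 228 untreated, 146, 130 and 123 with inhibitor and 471, 440 and 357 with ligand, a fall of 0.97 ± 0.13 and a rise of 0.58 ± 0.13. Mycn was not followed in the alternatives. Mxd1, a partner of Max that opposes Myc, ran the other way: 370, 348 and 385 untreated, 846, 903 and 952 with inhibitor and 317, 298 and 329 with ligand. It rose by 1.26 ± 0.08 with inhibitor (adjusted p = 7.51e-08), while its ligand change of -0.21 ± 0.08 was not called (adjusted p = 0.0655). The other genes of this network did not share 1 direction. Of its 11 measured genes, the 3 Myc genes fell and Mxd1 rose with inhibitor, and 5 rose and 1 fell with ligand on the deposited scale. Among further antagonists, Mxd4 (-0.30 ± 0.12, adjusted p = 0.0601) and Mnt (0.06 ± 0.08, adjusted p = 0.592) were not called with inhibitor and rose with ligand, by 0.58 ± 0.12 and 0.35 ± 0.08, while Mxi1, Mxd3, Mga and Max were called in neither comparison with untreated. Mlx, a Max-like protein, fell by 0.33 ± 0.09 with ligand (adjusted p = 0.0163).

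**Figure D5:**
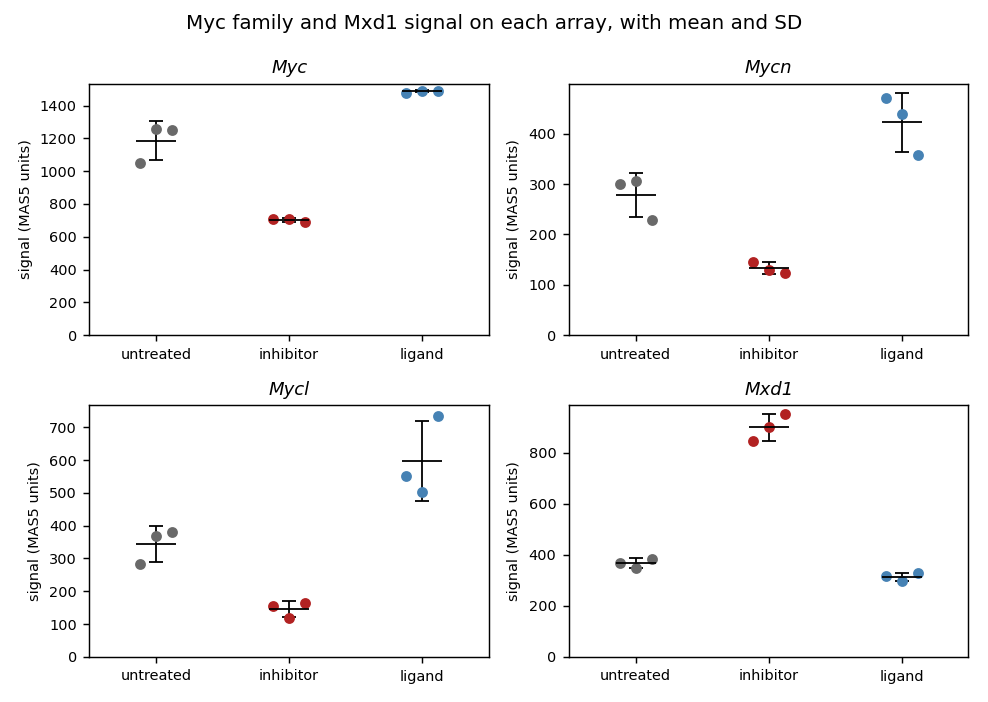
MAS5 signal (vertical axis from 0) of Myc, Mycn, Mycl and Mxd1 on each of the 9 arrays by group, with mean and SD as black bars. The 3 Myc genes are lowest on the inhibitor arrays and highest on the ligand arrays, and Mxd1 is highest on the inhibitor arrays (846 to 952, against 298 to 385 elsewhere).

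Markers of dividing cells and of several epithelial cell types moved with these results. Of all genes, 23.8% fell and 21.1% rose with inhibitor, and 14.7% rose and 9.3% fell with ligand. Of 18 measured proliferation genes 17 fell with the inhibitor (median -0.86), Mki67 by 0.57 ± 0.08 and the replication helicase subunits Mcm6 by 1.24 ± 0.07 and Mcm2 by 0.94 ± 0.07, and 5 rose and 2 fell with the ligand. All 8 crypt base stem cell markers fell with the inhibitor, with summed signals of 32305 to 36782 untreated, 12550 to 14114 with inhibitor and 40270 to 49317 with ligand, and 5 rose with the ligand. Lgr5, a stem cell receptor, had signals of 2224, 2566 and 2835 untreated, 1555, 1576 and 1591 with inhibitor and 4043, 4196 and 4470 with ligand. Absorptive enterocyte markers went the other way: 6 of 11 rose and 0 fell with the inhibitor (summed signals of 77559 to 86297 untreated, 87339 to 108659 with inhibitor and 58943 to 65203 with ligand), Anpep among them, from 680 to 855 untreated to 2693 to 2895 with inhibitor. With the ligand 1 enterocyte marker rose and 6 fell. Of 4 tuft cell markers, Dclk1 and Avil fell with inhibitor and Dclk1, Avil and Trpm5 rose with ligand on the deposited scale, with summed signals of 248 to 273 untreated, 123 to 144 with inhibitor and 557 to 607 with ligand. Of 5 goblet cell markers, Fcgbp, Spdef and Clca1 fell with inhibitor, and with ligand Spdef rose and Clca1 fell (summed signals of 16664 to 19529, 12242 to 15150 and 17370 to 21345). Of 5 Paneth cell markers 1 fell with inhibitor and 1 rose with ligand (33342 to 42212, 28252 to 34764 and 38269 to 55155). Of 6 enteroendocrine markers 3 rose and 1 fell with inhibitor, and 5 rose with ligand (8047 to 9429, 9199 to 9515 and 10551 to 11246). The part of these cell types and of cell division in the change of the ribosome biogenesis genes was not tested.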

How the data were processed

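RNA was extracted with a miRNeasy kit, amplified and labelled with biotin for the 3 prime assay, per the labels' protocols. The authors deposited 1 intensity per probe set and array on a linear scale, made with MAS5 per the submitters' processing notes; no source used here names a version. MAS5 subtracts a mismatch probe's signal, so low values are noisy, and the equal trimmed means fix 1 scale for all arrays, so differences in total RNA between cultures are not visible. The number of arrays limits the precision.

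Of 45101 probe sets, 34958 had 1 gene symbol in the platform annotation, 932 had several and 9211 had none, and the 64 control probe sets were left out. The filter on low values required a signal above the 40th percentile of the array (25.9 to 32) on 3 or more of the 9 arrays and left 28653. The brightest probe set, by mean log2(signal + 16) over the 9 arrays, stood for each gene. One limma 3.58.1 model in R 4.3.3 was fitted over the 9 arrays on log2(signal + 16), with a mean per group, 6 residual degrees of freedom, a variance prior that follows intensity and 2-sided tests, adjusted at 0.05 over all genes. The median within-group SD was 0.13. Before the filter, 28.9% of the values of all probe sets other than controls were at or below 16, where changes are understated. The code was tested on simulated data.

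Full statistics were given, per role, for the 2 genes (1 in the pair of helicases) with the smallest p for ligand against inhibitor. Outside the list, up to 3 genes per pathway list by the same p and a few fixed genes were named; Taf1a, Taf1b, Taf1c, Taf1d, Baz2a and the Myc network genes other than Myc, Mycl and Mxd1, the tuft, goblet, fibroblast, leukocyte and endothelial markers above the filter, and members outside that rule whose single arrays are given, were chosen after their values were seen, as were the 10 motifs. The members and lists were chosen with earlier results of these data known, so no test was run over the list as a whole. Replicate numbers were not treated as pairs, since deviations of same-numbered arrays had correlations of -0.08 to 0.08. Alternatives covered the offset, the filter, scaling, the choice of probe set, the variance prior, the arrays in the fit, the replicate block and each array left out.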

Additional observations from a re-analysis of the deposited data

How the results depend on the processing

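The count of members that fell with inhibitor (33) ran from 32 to 35 over the 20 alternatives, and the count higher with ligand than with inhibitor (37) from 34 to 37; all 37 kept both directions in each. The counts of 0 were 0 in each. The count that rose with ligand (5) was 6 with quantile normalization and 6 where probe sets of a gene were averaged. It was also 6 where probe sets ending in _x_at were used only when no other existed. It was 3 without a filter, 3 without the intensity trend, 3 with only the compared groups in the fit and 0 with each array centred on its median. With single arrays left out it was 1 to 6. The sum contrast gave 25, 16 without the intensity trend, and 11 to 25 with single arrays left out. The median change with inhibitor (-0.59) was -0.55 with median centring, -0.65 where probe sets ending in _x_at were used only when no other existed, and -0.64 to -0.58 with single arrays left out. That with ligand (0.11) was 0.11 with quantile normalization, 0 with median centring and 0.07 to 0.13 with single arrays left out. The difference between treatments (0.75) was 0.71 with an offset of 64, 0.71 with quantile normalization, 0.59 with median centring and 0.74 to 0.77 with single arrays left out. Where probe sets of a gene were averaged, the inhibitor change was 0.04 for Gtf3c6 and 0.23 for Eif3m, and Eif3m was at -0.12 for ligand against inhibitor, all uncalled; the cause was not tested. With the replicate block, 33 members fell with inhibitor, 4 rose with ligand and 36 were higher with ligand than with inhibitor; the block ended the calls of Polr1b and Tsr1 for ligand against untreated and of Imp4 for ligand against inhibitor, and added Mybbp1a. Imp4 (adjusted p up to 0.661) and Rrp12 (up to 0.393) lost their difference between treatments under several alternatives, and Bop1 with median centring (0.18). The inhibitor change had an SE of 0.15 for Nol6 and 0.11 for Rrp12, at mean untreated signals of 172 and 221. The part of signal level in their precision was not tested.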
